A study of Homo sapiens with 4 samples.

Results

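The mitotic kinesins described here are 10 genes of the kinesin family, microtubule-based motor proteins, whose products work mainly in dividing cells: KIF11, KIF14, KIF15, KIF18A, KIF20A, KIF20B, KIF23, KIF2C, KIF4A and KIFC1. They were chosen by gene symbol, with earlier results of these data known. All 10 were measured among 22465 genes with 1 symbol in the array's annotation. Where a symbol had several transcript clusters, which are the array's gene-level features, the one with the highest mean signal was taken. The study worked in SH-SY5Y, a human neuroblastoma cell line. It compared cells carrying an shRNA (a short hairpin RNA that lowers its target transcript) against LSD1+8a with cells carrying a control shRNA, with 2 arrays in each group. LSD1+8a is a splice form of the histone demethylase LSD1, the product of KDM1A. Both groups had been differentiated in the same way, first for 4 days in retinoic acid at 10 μM, followed by 3 serum-free days with the neurotrophin BDNF at 50 ng/mL. The labels do not say whether the shRNA cells were a pool or a clone, or whether the replicates were separate cultures.

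A dividing cell builds a bipolar microtubule spindle, aligns and separates its chromosomes on it, and then splits at the spindle midzone. Mitotic kinesins push the spindle poles apart, shorten or anchor microtubules at chromosomes, and carry signalling proteins to the midzone. Their transcripts are generally made in late S phase, G2 and mitosis and are scarce in cells that have left the cycle, as most neurons have. Retinoic acid and BDNF are used to slow division of SH-SY5Y cells and to bring out neuron-like features.

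All values are log2 signals from the RMA method, so a difference of 1 is a 2-fold change. The 4 arrays had median signals over all genes of 6.20 and 6.25 with the LSD1+8a shRNA and of 6.19 and 6.16 with the control shRNA. KDM1A read 8.76 and 8.78 with the LSD1+8a shRNA and 9.10 and 9.25 with the control shRNA, a whole-gene value that cannot isolate the targeted splice form. All 9 measured markers of adrenergic neuroblasts, the cell type SH-SY5Y belongs to, lay above the arrays' background medians on all 4 arrays. Of them, GATA3 and TH were called higher and ISL1 lower, TH not after cyclic loess (limma adjusted p = 0.0682) and ISL1 not after quantile normalization (limma adjusted p = 0.0557). The mean of the 9 was 9.85 and 9.68 with the LSD1+8a shRNA against 9.60 and 9.68 with the control shRNA. Of 10 markers of the mesenchymal type of neuroblastoma cell, PRRX1 and POSTN lay below background on all 4 arrays. The mean of these 10 was 5.53 and 5.63 with the LSD1+8a shRNA against 5.58 and 5.48 with the control shRNA. CD44 and ACTA2 were called higher and TWIST1 lower, of which only ACTA2 was called after cyclic loess. CD44 lay near background, at 4.80 and 4.81 with the LSD1+8a shRNA and 4.53 and 4.47 with the control shRNA. The background medians of these arrays, in the same order, were 4.71, 4.72, 4.50 and 4.43. The part of either marker list in the kinesin values was not tested.

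Every one of the 10 mitotic kinesins was lower with the LSD1+8a shRNA. The falls ran from 1.35-fold (KIF4A) to 1.97-fold (KIF11), with a median difference of -0.73 on the log2 scale, against 0.08 over all genes. All 10 passed the limma test at an adjusted p of 0.05 (0.00768 to 0.0299), whereas 11.2% of all genes were called lower. For all 10, both LSD1+8a arrays lay below both control arrays, which held for 27.7% of all genes. Falls of at least 1.5-fold that passed the test were found for 7 of the 10 and for 2.98% of all genes. In these bulk samples, fewer dividing cells and less transcript per cell cannot be told apart.

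**Figure D1:**
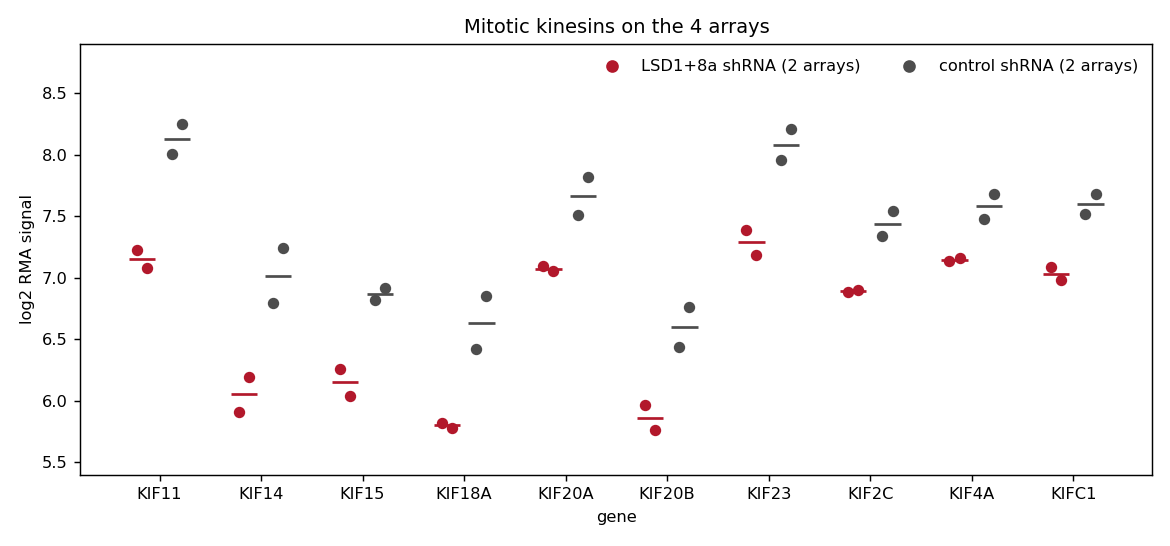
Log2 RMA signal (vertical axis) of each mitotic kinesin on the 2 LSD1+8a shRNA arrays (red, left) and the 2 control shRNA arrays (grey, right), with points for arrays and lines for group means. For all 10 genes the red points lie below the grey points. Levels are not comparable between genes, because each gene has its own probes.

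3 of the members act on the spindle as a whole. KIF11, the kinesin-5 motor that slides antiparallel microtubules and separates the poles, read 7.23 and 7.08 on the LSD1+8a arrays and 8.01 and 8.25 on the control arrays. Its lowest control value stood 0.78 above its highest LSD1+8a value, more than the 0.25 between the control arrays. The difference was -0.98 ± 0.11 (SE, n = 2 arrays in each group), which is 1.97-fold (limma adjusted p = 0.00768). KIF15, a kinesin-12 motor that helps keep the spindle bipolar and can stand in for KIF11, read 6.26 and 6.04 with the LSD1+8a shRNA and 6.82 and 6.92 with the control shRNA. These groups were separated by 0.56, and the fall was 1.65-fold, with a difference of -0.72 ± 0.10 (SE; limma adjusted p = 0.0129). KIFC1, a minus-end-directed kinesin-14 motor that opposes KIF11 and focuses the poles, read 7.09 and 6.98 with the LSD1+8a shRNA and 7.52 and 7.68 with the control shRNA. It was 1.48-fold lower (-0.57 ± 0.10, SE; limma adjusted p = 0.0185), again without overlap between the groups.

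KIFC1 was the only member with more than 1 transcript cluster. By their names, the clusters not used belong to alternative versions of chromosome 6. A second cluster held the same values as the one used on all 4 arrays, so it adds no separate measurement. The third was close to it (difference -0.58). The fourth, which the annotation gives the symbol KIFC1 but no Entrez gene ID, went the other way. It read 7.12 and 7.09 with the LSD1+8a shRNA and 6.84 and 6.64 with the control shRNA, and did not pass when all transcript clusters were tested (difference 0.37, limma adjusted p = 0.0895). With the mean over the 4 clusters the KIFC1 difference was -0.34, still called.

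Another 3 members act at chromosomes and microtubule ends. KIF18A, a kinesin-8 motor that damps chromosome movements at the spindle equator, read 5.82 and 5.78 with the LSD1+8a shRNA and 6.42 and 6.85 with the control shRNA. The LSD1+8a arrays were within 0.04 of each other and the control arrays 0.43 apart, so most of the spread of KIF18A lay among controls. It fell 1.78-fold (-0.83 ± 0.14, SE; limma adjusted p = 0.0177). KIF2C, also known as MCAK, a kinesin-13 that depolymerises microtubules at centromeres and helps correct faulty attachments, read 6.88 and 6.90 with the LSD1+8a shRNA and 7.34 and 7.54 with the control shRNA. That is 1.46-fold lower (-0.55 ± 0.10, SE; limma adjusted p = 0.0194). KIF4A, a chromokinesin that binds chromosome arms and later limits microtubule growth at the midzone, had the smallest fall of the 10. It read 7.14 and 7.16 with the LSD1+8a shRNA and 7.48 and 7.68 with the control shRNA, a difference of -0.43 ± 0.10 (SE), or 1.35-fold (limma adjusted p = 0.0299). Its intronless relative KIF4B, whose transcript could share probes with it, read 5.64 and 5.69 with the LSD1+8a shRNA and 5.59 and 5.60 with the control shRNA and did not pass (limma adjusted p = 0.541).

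The remaining 4 members work at the midzone and in cytokinesis. KIF23, also known as MKLP1, the motor subunit of the centralspindlin complex that bundles midzone microtubules, read 7.39 and 7.18 with the LSD1+8a shRNA and 7.96 and 8.21 with the control shRNA. It fell 1.73-fold (-0.79 ± 0.12, SE; limma adjusted p = 0.0141). Its antisense gene KIF23-AS1 read 4.53 and 4.65 with the LSD1+8a shRNA and 4.49 and 4.37 with the control shRNA and was not called (limma adjusted p = 0.198). Each KIF23-AS1 value lay below the background median of its array, so whether this transcript is present or changes cannot be read here. KIF20A, also known as MKLP2, which brings Aurora B and its partners from chromosomes to the midzone, read 7.09 and 7.06 with the LSD1+8a shRNA and 7.51 and 7.82 with the control shRNA. The KIF20A groups were 0.42 apart at their nearest values, against 0.31 between the control arrays. Its fall was 1.504-fold (-0.59 ± 0.11, SE; limma adjusted p = 0.0234). KIF20B, or MPP1, a related motor needed to finish cytokinesis and, in mouse, for growth of the cerebral cortex, read 5.96 and 5.76 with the LSD1+8a shRNA and 6.44 and 6.77 with the control shRNA. KIF20B was 1.67-fold lower (-0.74 ± 0.13, SE; limma adjusted p = 0.0191). KIF14, a motor that works with citron kinase at the midbody, read 5.91 and 6.19 with the LSD1+8a shRNA and 6.80 and 7.24 with the control shRNA. It had the widest spread of the 10 in both groups, and its fall was 1.95-fold (-0.97 ± 0.16, SE; limma adjusted p = 0.0174).

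For each of the 10 members the gap between the groups, from the lowest control to the highest LSD1+8a array, was wider than the distance between replicates in either group. The LSD1+8a values of KIF18A and KIF20B, and 1 each of KIF14 and KIF15, lay below the highest of the background features of their array (6.11 and 6.13), so the sizes of these falls are uncertain. Gaps ran from 0.32 (KIF4A) to 0.78 (KIF11), distances between the LSD1+8a arrays from 0.02 to 0.28, and those between the control arrays from 0.10 to 0.44. The control arrays were not level for these genes: control replicate 2 was above control replicate 1 for all 10 members, by a median of 0.25, whereas over all genes the median of that difference was -0.02 and 43.5% of genes were higher on replicate 2. In the order of all 22465 differences, counted from the largest fall, the members ranged from the lowest 0.68% (KIF11) to the lowest 7.03% (KIF4A). The 95% intervals of the differences were -1.23 to -0.72 for KIF11 and -0.66 to -0.21 for KIF4A. Whether members differ in their response was not tested.

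**Figure D2:**
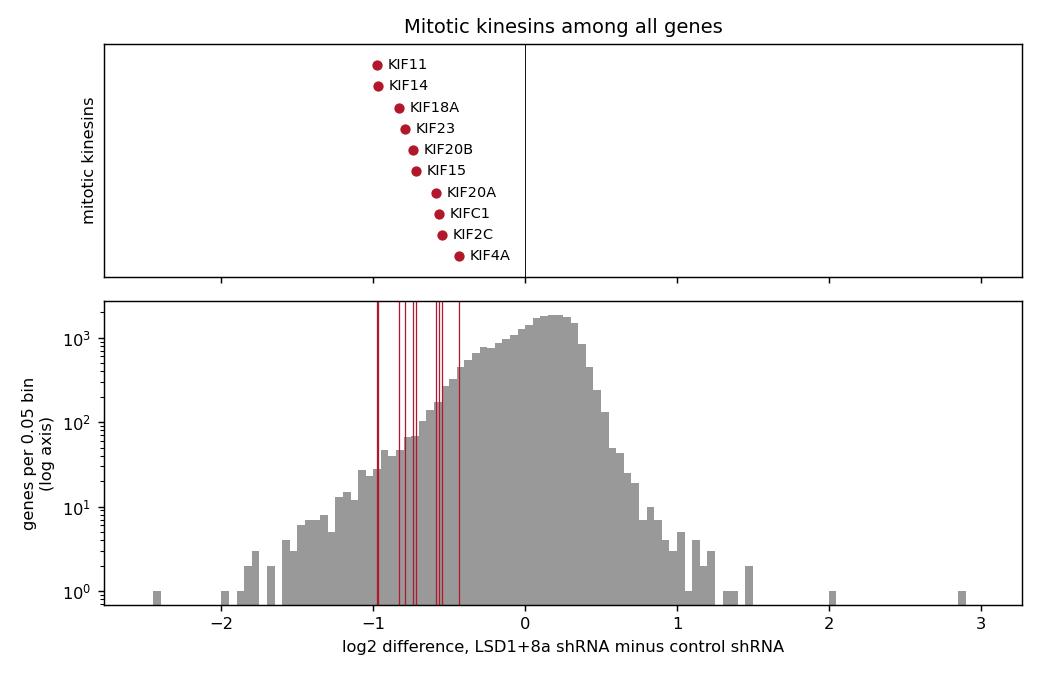
Log2 difference (horizontal axis, LSD1+8a shRNA minus control shRNA) of each mitotic kinesin (red, upper panel) above the distribution of the same difference over all 22465 genes (grey, lower panel, log count axis, red lines at the members). The members lie between -0.98 and -0.43, in the lower tail, while the median of all genes is 0.08.

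With 1 control array left out, that group has 1 array, which is assumed to vary like the other group, and fewer degrees of freedom remain. Without control replicate 1 and without control replicate 2, limma called 0 of the 10 members, and 0% of all genes in each case, although all 10 had an unadjusted p under 0.05 in both (9835 and 5339 of all genes did). Leaving out LSD1+8a replicate 1 or, in turn, LSD1+8a replicate 2 left 9 of 10 called, against 3.94% and 8.79% of all genes called lower, and KIF4A was not (limma adjusted p = 0.0789 and 0.0505). Fitting and adjusting over all 67528 transcript clusters left KIF11, KIF15 and KIF23 called, against 1.08% of clusters called lower. No member turned its direction in any of these fits, and all 10 were called after cyclic loess between arrays, against 7.85% of all genes called lower.

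**Figure D3:**
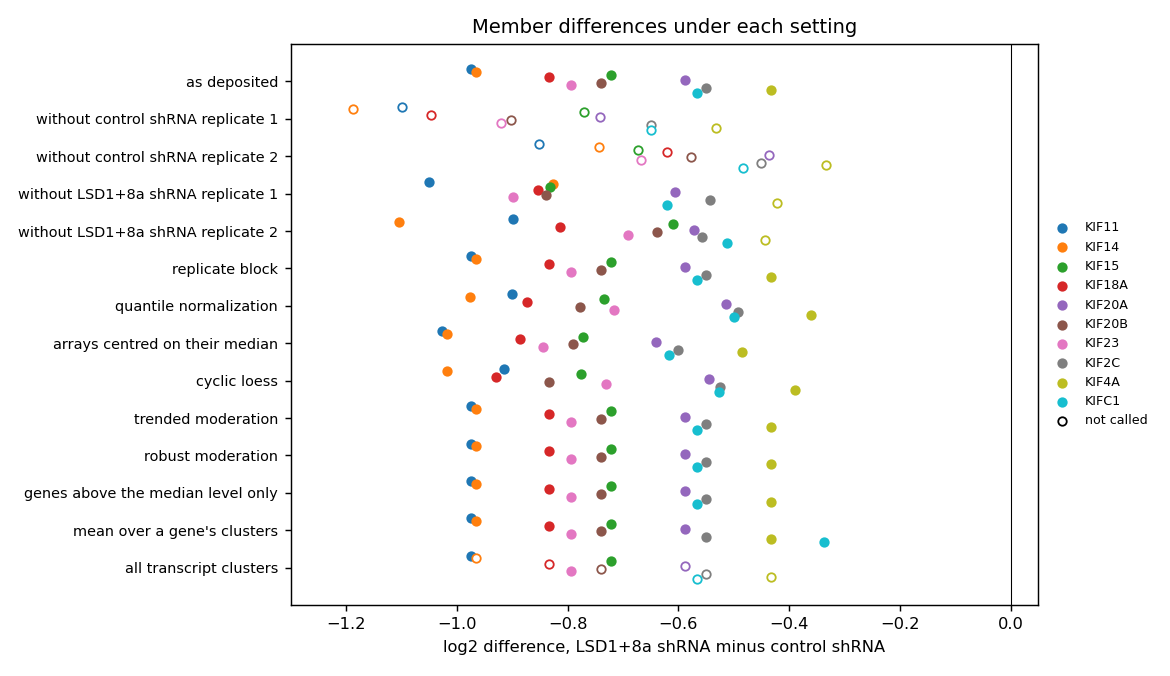
Log2 difference (horizontal axis, LSD1+8a shRNA minus control shRNA) of the 10 members under each setting (rows), coloured by gene, with filled points for an adjusted p under 0.05 and open points otherwise. All points lie below 0, and all points are open where a control array was left out.

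The start sites of these genes were compared for a sequence feature that the choice of members did not use. Many late cell cycle genes carry a cell cycle genes homology region, or CHR, close to their transcription start. It is the site at which LIN54 holds the MuvB complex, which represses these genes in resting cells and takes part with MYBL2 and FOXM1 in activating them in dividing cells. A CCAAT box, the site of the activator NF-Y, often lies upstream of it. RefSeq start windows (GRCh38.p14, 250 bases before to 50 after the start) held all 10 members, 1 window each. Both strands were searched for the CHR letters TTTGAA and TTTAAA and for CCAAT. The letters were chosen with these windows in view, so the counts are descriptions.

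TTTGAA was found in the windows of 8 members and in 15.2% of all 35116 windows. TTTAAA, which reads the same on both strands, was in 4 members and 12.2% of windows. At least 1 of these forms was present in all 10 members and in 24.0% of windows, and CCAAT was in 8 members (not KIF15 or KIF2C) and 34.6% of windows. A CHR match together with a CCAAT match was found in 8 members and 9.27% of windows. In 7 members a CCAAT match ended within 60 bases before the CHR match nearest the start, with 4 to 45 bases between them. In KIF14, KIFC1 and KIF20B the CHR match nearest the start lay after it, in KIF2C it spanned the start, and in the other 6 it began 10 to 55 bases before it. A match does not show that a factor binds there.

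The stretches below are shown because they hold the CHR match nearest the start of each of the 6 members in which it lies wholly before the start, with any CCAAT box near it, and the doubled match of KIF20B. KIF14 and KIF23 also hold a TTTAAA match farther upstream, from base -198 and base -211, which is not shown. They read 5′ to 3′ on the gene's strand, and capitals mark matches to the searched letters on either strand (a CCAAT box on the other strand reads ATTGG, and TTTGAA reads TTCAAA).
KIF11, chr10:92593071-92593113, plus strand: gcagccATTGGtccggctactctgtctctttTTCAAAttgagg
KIF4A, chrX:70290040-70290081, plus strand: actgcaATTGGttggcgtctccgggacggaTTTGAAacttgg
KIF20A, chr5:138179039-138179082, plus strand: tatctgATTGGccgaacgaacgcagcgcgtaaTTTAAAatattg
KIF18A, chr11:28108157-28108207, minus strand: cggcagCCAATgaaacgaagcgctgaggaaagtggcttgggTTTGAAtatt
KIF23, chr15:69414279-69414305, plus strand: gcgctgATTGGcccgTTTGAAatgcgc
KIF15, chr3:44761729-44761770, plus strand: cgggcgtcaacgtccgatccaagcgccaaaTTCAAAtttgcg
KIF20B, chr10:89701602-89701631, plus strand: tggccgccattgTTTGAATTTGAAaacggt
KIF11, KIF4A and KIF20A each have a CCAAT box on the other strand, with 19 to 21 bases between it and the CHR match. The CHR match itself differs in strand or form among these 3. KIF11 had the largest fall of the 10 and KIF4A the smallest, and a link between layout and fall was not tested. The longest spacing shown is that of KIF18A, with 30 bases, and the shortest that of KIF23, with 4. In KIF20B a pair of TTTGAA matches lies back to back in the first transcribed bases.

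**Figure D4:**
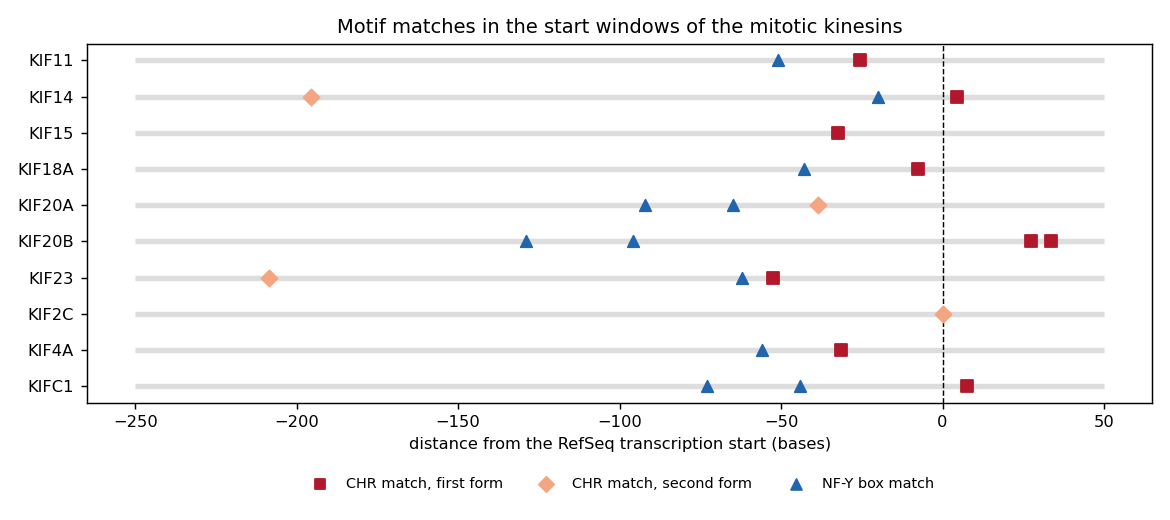
Positions of motif matches in the start windows of the 10 mitotic kinesins, by distance in bases from the RefSeq transcription start (dashed line at 0), with grey bars for the searched windows. Red squares are CHR matches of the first form searched, orange diamonds those of the second and blue triangles NF-Y box matches. Every row has a CHR match, and 8 rows have an NF-Y box.

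Regulators of late cell cycle promoters were looked at as a list of 16 genes. It includes E2F genes, whose own sites were not searched. Of them 9 fell, 0 rose and 7 did not pass, with a median difference of -0.39, where 11.2% of all genes were called lower. RBL1, the pocket protein p107, read 6.23 and 6.22 with the LSD1+8a shRNA and 7.08 and 7.23 with the control shRNA (-0.93 ± 0.09, SE; limma adjusted p = 0.00587). Its relative RBL2, or p130, the main pocket protein of the repressing DREAM complex, fell by 0.54, and the MuvB subunit genes LIN9, LIN54 and LIN52 by 0.61, 0.47 and 0.38 on the log2 scale. FOXM1, an activator of late cell cycle genes that is named after its value was seen, fell by 0.53 (limma adjusted p = 0.0228). NFYB, a subunit of NF-Y, fell by 0.30 and was not called after cyclic loess (limma adjusted p = 0.0567), where 6 of the 16 were called, against 7.85% of all genes.

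Proteins that recruit, regulate or work beside the mitotic kinesins formed a list of 27, of which 26 were measured and CIT, citron kinase, was not analysed here. Among the 26, 16 fell, 0 rose and 10 did not pass, with a median difference of -0.41, where 11.2% of all genes were called lower. Without LSD1+8a replicate 1, 8 were called lower, against 3.94% of all genes. CDK1, the kinase that drives entry into mitosis and phosphorylates several of these motors, had the largest fall, with 5.87 and 5.89 on the LSD1+8a arrays against 6.78 and 7.15 on the control arrays (-1.08 ± 0.13, SE; limma adjusted p = 0.00834). NUSAP1, a microtubule-bundling protein, fell by 0.88, as did ECT2, the exchange factor that centralspindlin recruits to start furrowing. The smallest falls that passed were those of AURKB (0.31), AURKA (0.36) and BIRC5 (0.40), which encode the midzone and spindle kinases Aurora B and Aurora A and survivin, a partner of Aurora B. Cyclic loess left 10 of the 26 called, against 7.85% of all genes called lower, without AURKA and AURKB (limma adjusted p = 0.0540 and 0.0662).

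Some direct partners of individual members and of Aurora B are named here after their values were seen. RACGAP1, which forms centralspindlin with KIF23, fell by 0.68, and PRC1, the midzone crosslinker that brings in KIF4A, fell by 0.66. TPX2, which binds KIF11 and recruits KIF15 to the spindle, fell by 0.50 and was not called after cyclic loess (limma adjusted p = 0.0540). PLK1, the kinase that docks on KIF20A, read 8.41 and 8.36 with the LSD1+8a shRNA and 8.39 and 8.79 with the control shRNA, which overlap, and did not pass (limma adjusted p = 0.256). INCENP and CDCA8, which hold Aurora B in its complex, differed by -0.21 and -0.27 and did not pass (limma adjusted p = 0.0940 and 0.0553). Nor did KIFBP, which binds KIF15 and KIF18A (-0.04, limma adjusted p = 0.693), the plus-end protein gene MAPRE1 (-0.11, limma adjusted p = 0.343) or ARF6, a small GTPase that binds KIF23 (-0.01, limma adjusted p = 0.952).

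Kinesins of cell division outside the 10 were called in both directions. Of 7 measured, 2 fell, 1 rose and 4 did not pass, with a median difference of -0.27, where 11.2% of all genes were called lower and 12.1% higher. CENPE, the kinetochore motor that carries chromosomes to the equator, read 6.28 and 6.28 with the LSD1+8a shRNA and 6.60 and 7.12 with the control shRNA (-0.58 ± 0.16, SE; limma adjusted p = 0.0418). KIF24, a kinesin-13 of centrioles that restrains cilium formation, fell by 0.38. CENPE was not called after cyclic loess (limma adjusted p = 0.0686), and neither gene was called without LSD1+8a replicate 1. KIF2A, a depolymerase of spindle poles and also of growing axons, and KIF22, a chromokinesin, had differences of -0.30 and -0.27 that did not pass (limma adjusted p = 0.0561 and 0.0597). KIF18B, a relative of KIF18A that controls astral microtubules, differed by -0.09 and did not pass (limma adjusted p = 0.486). KIF2B read 5.36 and 5.53 with the LSD1+8a shRNA and 4.96 and 4.99 with the control shRNA. That was called a rise of 0.47, but all 4 values lie in the range of the arrays' background features (2.81 to 6.13), and it was not called after cyclic loess (limma adjusted p = 0.0762).

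Kinesins and kinesin light chains of intracellular transport, cilia and other roles were also called in both directions. Of 31 genes, 8 rose, 2 fell and 21 did not pass, with a median difference of 0.12, where 12.1% of all genes were called higher. KIF5A, a neuronal kinesin-1 heavy chain that carries cargo along axons, read 8.98 and 9.20 with the LSD1+8a shRNA and 8.55 and 8.73 with the control shRNA (0.45 ± 0.11, SE; limma adjusted p = 0.0356). KIF1A, which moves synaptic vesicle precursors, rose by 0.42, and KIF12 rose by 0.37. The 2 that fell were KIF27 (0.38) and KIF21A (0.35), which restrains microtubule growth in axons. KIF21A was not called after cyclic loess (limma adjusted p = 0.0709), and neither was called without LSD1+8a replicate 1. The calls of a rise depended on scaling. With either LSD1+8a array left out, fewer of the 31 were called higher, and so were fewer of all genes. Median centring left 2 of the 31 called higher, against 4.94% of all genes, with KIF5A and KIF1A not among them (limma adjusted p = 0.0514 and 0.0616). Cyclic loess left 5, KIF5A and KIF1A included, against 3.03% of all genes. KIF12 was called after median centring but not after cyclic loess (limma adjusted p = 0.0559). The difference between this list and the 10 mitotic kinesins was not tested as such. In these counts all 10 mitotic kinesins, 2 of the 7 other kinesins of cell division and 2 of these 31 were called lower, against 11.2% of all genes. The members and lists were chosen with earlier results of these data known, so the contrast between these counts is only a description.

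**Figure D5:**
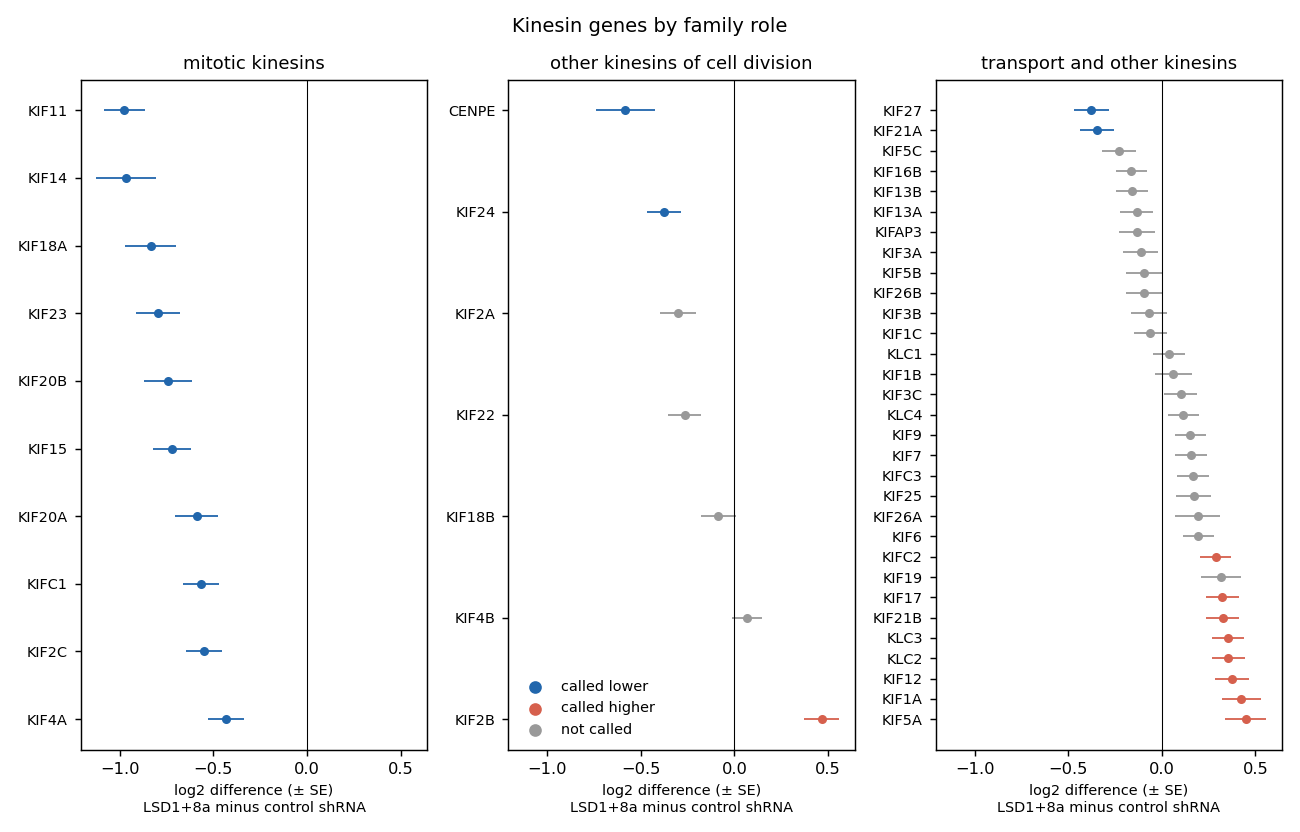
Log2 difference ± SE (horizontal axis, LSD1+8a shRNA minus control shRNA) of each gene of the 10 mitotic kinesins (left), the 7 other kinesins of cell division (middle) and the 31 transport and other kinesins (right). Blue points were called lower, red points higher and grey points were not called at an adjusted p of 0.05. All 10 points on the left are blue, and those on the right lie on both sides of 0, between -0.38 and 0.45.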

How the data were processed

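The deposited values are log2 signals made by the authors with RMA, per the submitters' processing notes, 1 value per feature for each of 4 arrays. Which program ran RMA, and on which genome build, is not given in the sources used here. Total RNA (250 ng, per the labels' protocols) was hybridised to an Affymetrix human transcriptome array.

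Of 70523 features, 67528 were transcript clusters, and those with 1 symbol gave 22465 genes. LSD1+8a shRNA minus control shRNA was tested with limma (version 3.58.1, under R 4.3.3; functions lmFit and eBayes), with Benjamini-Hochberg adjustment over all genes and a threshold of 0.05. SE is limma's. As replicates are not said to be separate cultures, p-values reflect array-to-array spread that may be technical, and 2 arrays in each group limit the precision. RMA gives no detection call. Per array, the median of 6 background features with GC counts from 13 to 18 (4.43 to 4.72 on the 4 arrays) was a rough guide, and all 10 mitotic kinesins lay above it.

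Members and lists were chosen with earlier results of these data known. The genes named are all members, all other kinesins of cell division, and the 3 lowest and 3 highest called genes of each further list, with additions stated. Start windows came from RefSeq (GRCh38.p14). No protein sequences were used. The fit and the motif search were tested on simulated data. Figures were drawn with matplotlib 3.10.9. Alternatives were leaving out arrays, a replicate block, scaling, moderation, a level filter, cluster handling and thresholds.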

Additional observations from a re-analysis of the deposited data

Results flagged for a closer look

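1 transcript cluster with the symbol KIFC1, outside the comparison of the 10 genes, stood above its control level. It differed by 0.37 on the log2 scale, with 7.12 and 7.09 on the LSD1+8a shRNA arrays and 6.84 and 6.64 on the control shRNA arrays, while the cluster used for KIFC1 differed by -0.57. What this cluster measures was not tested.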

How the results depend on the processing

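The differences of all 10 mitotic kinesins stayed below 0 under all 13 alternatives. With 1 array left out, the number called lower ran from 0 to 9, and their median difference from -0.84 to -0.60, which moved by more than the replicate spread of 0.10. Fitting all transcript clusters, which changes both the moderation and the number of features adjusted over, left 3 called. A threshold of 0.01 left 1, KIF11. Deviations of same-numbered arrays from their group means had a correlation of 0.02 over all genes. With 2 arrays in each group, this cannot decide whether the numbers pair them. With the replicate number as a block, all 10 were called, against 15.7% of all genes called lower, with a median difference of -0.73. Counts for the other lists also moved by over 1.5 times under some alternatives, and the cause was not tested. Restricting the start windows to the bases before the start was an alternative added after seeing the data. It left a CHR match in 7 members and in 21.9% of windows. TTTGAA was left in 5 members and 13.3% of windows, against 8 members in the whole windows. A CHR match together with a CCAAT match was left in 6 members and 7.64% of windows, also against 8 members.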
